A study of Rattus norvegicus with 27 samples.

Results

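Soft silicone was compared with rigid plastic as a growth surface for primary rat lung fibroblasts after 4 days, in 4 RNA-seq libraries of PDMS day 4 and 4 of Plastic day 4. These are 8 of the 27 libraries of the series, chosen by the substrate and day in their labels and not by any measured value. The fibroblasts came from lungs of Sprague-Dawley rats, an outbred stock, and were selected with magnetic beads for CD90, the Thy-1 antigen. Both groups were grown in MucilAir medium on a coat of collagen I from rat tail (38 µg/ml). They differed in what lay under the collagen, which was tissue culture plastic or polydimethylsiloxane (PDMS) of 3 to 5 kPa. In the headers of the count table both groups are marked WT and MonoCulture. The labels give no stiffness for the plastic and name no agent, transgene or disease model in either group. The animal or culture behind each library is not named in them. The p-values below therefore rest on the spread from library to library, which may be technical in part. In bulk RNA, fewer cells of a type and less RNA per cell cannot be told apart.

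Fibroblasts sense the stiffness of their surroundings through integrins at focal adhesions, which couple the matrix to actin stress fibres. On rigid surfaces, tension in these fibres is known to favour nuclear entry of the cofactors YAP, TAZ and MRTF and the contractile, matrix-producing myofibroblast state. Soft surfaces near the stiffness of healthy lung are known to oppose it. Genes stand in the count table as Ensembl rat IDs, and 0 of these IDs could be paired with a symbol from the gene table used here. The 20 lists of contractile, matrix, YAP/TAZ, TGF-beta, inflammatory and other pathway genes and the 9 lists of cell type markers could therefore not be applied. The identity of the fibroblasts and the share of other cell types were not checked. The genes are described below by level, size of difference and pattern over libraries.

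At day 4 no single gene separated PDMS from plastic firmly enough to pass the test, and the differences that stood out by size leaned toward lower levels on PDMS. Of 14258 genes tested, 0 (0%) passed an adjusted p of 0.05 after Benjamini-Hochberg correction (edgeR quasi-likelihood test, n = 4 and 4; smallest adjusted p = 0.351). DESeq2 called 24 genes, 20 of them lower and 4 higher on PDMS, and limma-voom called 0. Before adjustment, 1246 genes (8.74%) had an edgeR p under 0.05, 910 lower (6.38%) and 336 higher (2.36%) on PDMS. Fitted differences above 2-fold were also uneven, with 780 genes lower and 353 higher on PDMS, and above 4-fold 164 were lower and 86 higher. Over all genes the balance was even, with 7094 fitted values below 0 and 7164 above it, and a median log2 fold change of 0.00. The 5th and 95th percentiles of the fitted log2 fold change were -1.06 and 0.63. The lean varied with the scaling and the fit. Of the 1246 genes 73% were lower on PDMS, against 55.6% with library size alone (571 higher, 715 lower), which moved the median log2 fold change of all genes to 0.06. With TMM kept, it was 63.3% in a fit of the 8 libraries alone (397 higher, 684 lower) and 55.6% when a replicate block was added to that fit (497 higher, 623 lower). It was 63.4% with limma-voom (384 higher, 665 lower).

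**Figure D1:**
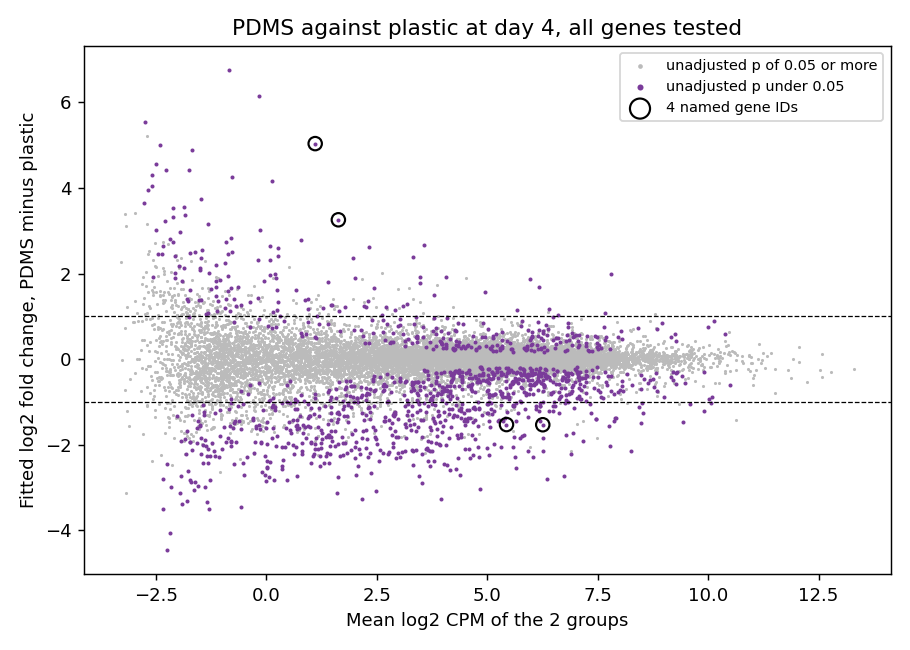
Fitted log2 fold change of PDMS against plastic at day 4 (vertical axis) against the mean log2 CPM of both groups (horizontal axis), 1 point per gene for 14258 genes. Purple points have an unadjusted p under 0.05 (910 lower and 336 higher on PDMS), dashed lines mark 2-fold, and rings mark the 4 gene IDs described in the text.

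A gene that misses the threshold is not thereby shown to be equal on the surfaces, so the interval of each difference was examined. For 8900 genes (62.4%) the 95% interval of the log2 fold change lay inside 2-fold in either direction, taken gene by gene with no adjustment. For the other 5358 genes (37.6%) the interval reached 2-fold or more on at least 1 side. Precision followed expression. In the lowest tertile of genes by level the median standard error (SE) was 0.53 log2 units and 27% of intervals lay inside 2-fold. In the middle tertile these values were 0.19 and 75.4%, and in the highest tertile 0.16 and 84.9%. The lean toward lower levels on PDMS appeared in each tertile of expression: 334 genes lower against 146 higher at an unadjusted p under 0.05 in the lowest tertile, 298 against 91 in the middle one and 278 against 99 in the highest.

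The libraries themselves sorted poorly by surface. Libraries were set against each other by the root mean square (RMS) difference of log2 CPM over all genes tested, where CPM is the count scaled to a common library size after TMM. Within PDMS the 6 pairs had a median of 0.75 (0.44 to 1.03), within plastic the 6 pairs had one of 0.89 (0.32 to 1.44), and between the surfaces the 16 pairs had one of 0.90 (0.54 to 1.32). The mean difference between surfaces, 0.89, exceeded the mean within surfaces, 0.86, by 0.03, which was not larger than under other assignments of the 8 libraries (exact permutation over 70 assignments, one-sided p = 0.286, where 0.0286 is the smallest possible). For 4 of the 8 libraries the nearest other day 4 library was of the same surface: PDMS replicates 1 and 3 were nearest to each other (0.44), and Plastic replicates 1 and 2 to each other (0.32). For the other 4 it lay on the opposite surface. PDMS replicate 4 and Plastic replicate 4 were nearest to each other at 0.54, Plastic replicate 3 was nearest to PDMS replicate 4 at 0.67, and PDMS replicate 2 was nearest to Plastic replicate 1 at 0.88. PDMS replicate 4 was almost as near to PDMS replicate 3 (0.54).

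**Figure D2:**
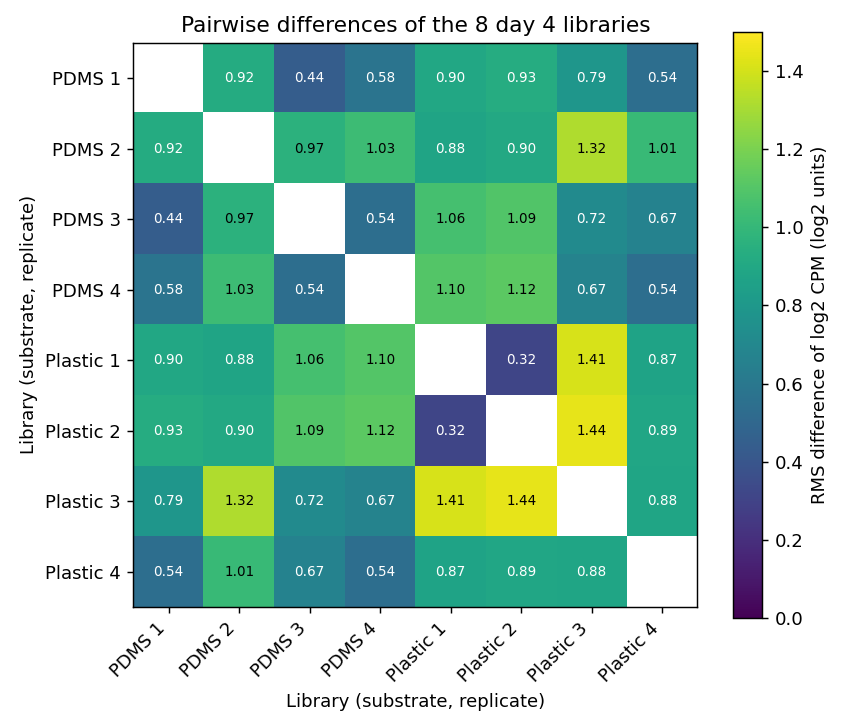
RMS difference of log2 CPM for each pair of the 8 day 4 libraries (rows and columns, substrate and replicate number; colour and printed value in log2 units). Plastic replicates 1 and 2 form the closest pair (0.32), and Plastic replicate 3 is farther from them (1.41 and 1.44) than from any PDMS library.

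The widest and the closest pairs of libraries were both within plastic. Plastic replicates 1 and 2 differed more than 2-fold in 251 genes, while either of them differed from Plastic replicate 3 in 3936 and 3927 genes. For replicates 1 and 2 the mean chi-square per gene, over genes with at least 50 counts in the pair, was 8.28, above the value near 1 that sampling of reads gives, and they were counted as 2 libraries. That value covers counting error alone and does not show that they came from separate cultures. The other 27 pairs of day 4 libraries had values of 34.6 to 421. Against the mean of the 4 PDMS libraries, Plastic replicate 1 was more than 2-fold higher in 1169 genes and lower in 1289. Plastic replicate 2 gave 1162 and 1355, Plastic replicate 3 gave 1225 and 856, and Plastic replicate 4 gave 574 and 454. Plastic replicate 4 was thus the plastic library closest to PDMS on this count. Set against the other 3 libraries of its own group, Plastic replicate 3 was over 2-fold higher in 1915 genes and lower in 1358.

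PDMS day 4 was tighter apart from 1 library. PDMS replicate 2 departed by more than 2-fold from the mean of the other 3 PDMS libraries in 879 genes upward and 1565 downward, while PDMS replicates 1, 3 and 4 departed in 476, 554 and 638 genes upward and 220, 308 and 575 downward. Over genes, the median SD of log2 CPM was 0.26 on PDMS and 0.31 on plastic, and 61.1% of genes had the larger SD on plastic. Without PDMS replicate 2 the PDMS median fell to 0.18, and without Plastic replicate 3 the plastic median fell to 0.22. Among all 27 libraries, PDMS replicate 2 was nearest to a library of PDMS day 2 (replicate 4, RMS difference 0.71). That day 2 library was also the second nearest to Plastic replicates 1 and 2 (0.85 and 0.87).

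Total counts, in units of 1e+06, were 19.9 to 21.9 on PDMS and 21.1 to 23.1 on plastic, with 21.2, 22.9 and 23.1 in Plastic replicates 1, 2 and 3. Genes reaching 10 reads numbered 12993 to 13266 on PDMS and 13046 to 13160 on plastic. The effective number of genes, which falls as reads gather in fewer genes, was 3765 to 4062 on PDMS and 3306 to 3959 on plastic, with the lowest values in Plastic replicates 4 and 3 (3306 and 3537).

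Whether genes were called turned on how the plastic libraries entered. Without Plastic replicate 3, edgeR called 245 genes, 209 lower and 36 higher on PDMS, and gave 2255 genes at an unadjusted p under 0.05. Those calls also depended on fitting the other days alongside. In a fit of the day 4 libraries alone, again without Plastic replicate 3, edgeR called 0 genes (smallest adjusted p = 0.088). It gave 2482 genes at an unadjusted p under 0.05. That fit differs in its estimate of the spread, its residual degrees of freedom and the genes tested (13331 against 14222). The part of each was not tested. Without any other single day 4 library, edgeR called 0 genes, and 604 to 1331 had an unadjusted p under 0.05, the lowest counts being those without Plastic replicate 2 (604) and Plastic replicate 1 (686). When the counts of the closely alike Plastic replicates 1 and 2 were summed to 1 library, 0 genes were called and 641 had an unadjusted p under 0.05. With that pair summed and Plastic replicate 3 left out as well, the 245 calls became 0. For plastic that fit kept only the summed library and Plastic replicate 4. In it 1336 genes had an unadjusted p under 0.05 (smallest edgeR adjusted p = 0.177). With Plastic replicates 1 and 2 both left out, 0 genes were called, 444 had an unadjusted p under 0.05, and 55.4% of these were lower on PDMS. With Plastic replicate 3 and PDMS replicate 2 both left out, 39 genes were called, 37 of them lower on PDMS.

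**Figure D3:**
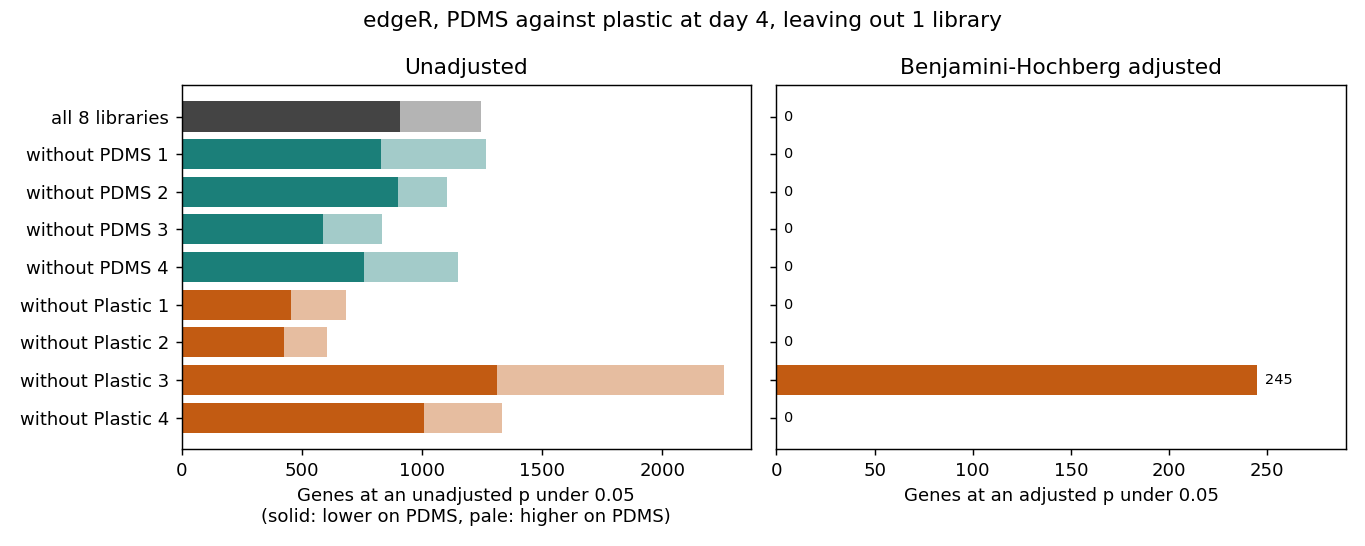
Genes at an unadjusted p under 0.05 (left; solid lower on PDMS, pale higher) and at an adjusted p under 0.05 (right) in the edgeR fit with all 8 day 4 libraries and with each left out in turn. Without Plastic replicate 3 the counts are 2255 and 245, and every other fit calls 0 genes.

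The library left out of that fit was then read for the genes it called. Of the 209 genes lower on PDMS, Plastic replicate 3 lay above the PDMS mean in 57, within the range of the 4 PDMS libraries in 106, above that range in 9 and below it in 94. The median difference of these genes from the PDMS mean was 1.83 log2 units in Plastic replicate 1, 1.85 in replicate 2, 0.64 in replicate 4 and -0.24 in replicate 3. Of the 36 genes higher on PDMS, Plastic replicate 3 lay below the PDMS mean in 13, and the medians were -1.54, -1.64, -0.97 and 0.12 for replicates 1, 2, 4 and 3. Replicates 1, 2 and 4 entered the choice of these genes, so their medians describe the choice. Replicate 3 did not enter it, and on the 209 genes it lay within or below the PDMS range in all but 9.

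The 8 libraries were fully separated by surface in 592 genes (4.15%), counting genes whose 4 PDMS values all lay on one side of the 4 plastic values. Here the balance was different from that of the large folds, with 322 genes higher (2.26%) and 270 lower (1.89%) on PDMS. The median difference of mean log2 CPM was 0.39 for the 322 genes and -0.50 for the 270 genes. If the 8 libraries were exchangeable, a gene without ties would be fully separated with probability 0.0286 over the 70 assignments. The 4.15% stands beside that value, genes are not independent, and no test compared the shares.

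The 4 gene IDs described next had the largest fitted folds, 2 in each direction, among genes with an unadjusted p under 0.05, no overlap between the libraries and 5 CPM or more on average in the higher group. Of the genes that met these conditions 70 were higher and 117 lower on PDMS, with median log2 fold changes of 0.53 and -0.55. The IDs did not pass the edgeR test, and their separation is part of how they were chosen. ENSRNOG00000010262 stood at 1.62, 70.2, 5.93 and 2.78 CPM in PDMS replicates 1 to 4. In Plastic replicates 1 to 4 it stood at 0.57, 0.83, 0.58 and 0.44 CPM, from 13, 20, 13 and 9 reads. Each PDMS library was above each plastic library, and PDMS replicate 2 was far above the other 3. The log2 fold change was 5.04 ± 1.502 (SE; 95% interval 1.92 to 8.15; edgeR adjusted p = 0.351), and it was 2.49 without PDMS replicate 2. DESeq2 called this ID at an adjusted p of 0.0311.

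ENSRNOG00000002331 followed the same library. It stood at 4.63, 49.6, 2.76 and 2.39 CPM in PDMS replicates 1 to 4. In Plastic replicates 1 to 4 it stood at 1.72, 1.95, 1.92 and 0.58 CPM. The lowest PDMS value and the highest plastic value were close, and the log2 fold change of 3.26 ± 1.04 (SE; 95% interval 1.10 to 5.41; edgeR adjusted p = 0.354) became 1.06 without PDMS replicate 2.

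Among the 117 genes lower on PDMS that met the conditions, ENSRNOG00000029399 had the largest fitted fold. It stood at 62.8, 46.9, 35.6 and 51.8 CPM in PDMS replicates 1 to 4. In Plastic replicates 1 to 4 it stood at 214, 221, 64.2 and 70.0 CPM. The closely alike Plastic replicates 1 and 2 were about equal and far above the rest, while Plastic replicates 3 and 4 lay just above the highest PDMS library. The log2 fold change was -1.53 ± 0.60 (SE; 95% interval -2.78 to -0.28; edgeR adjusted p = 0.432), and -0.45 without Plastic replicates 1 and 2. ENSRNOG00000018338 stood at 29.9, 9.63, 35.2 and 40.8 CPM in PDMS replicates 1 to 4. In Plastic replicates 1 to 4 it stood at 60.4, 62.9, 162 and 47.4 CPM. Here Plastic replicate 3 was the highest and PDMS replicate 2 the lowest. The log2 fold change was -1.53 ± 0.63 (SE; 95% interval -2.82 to -0.23; edgeR adjusted p = 0.448), and it was -0.98 without Plastic replicate 3.

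**Figure D4:**
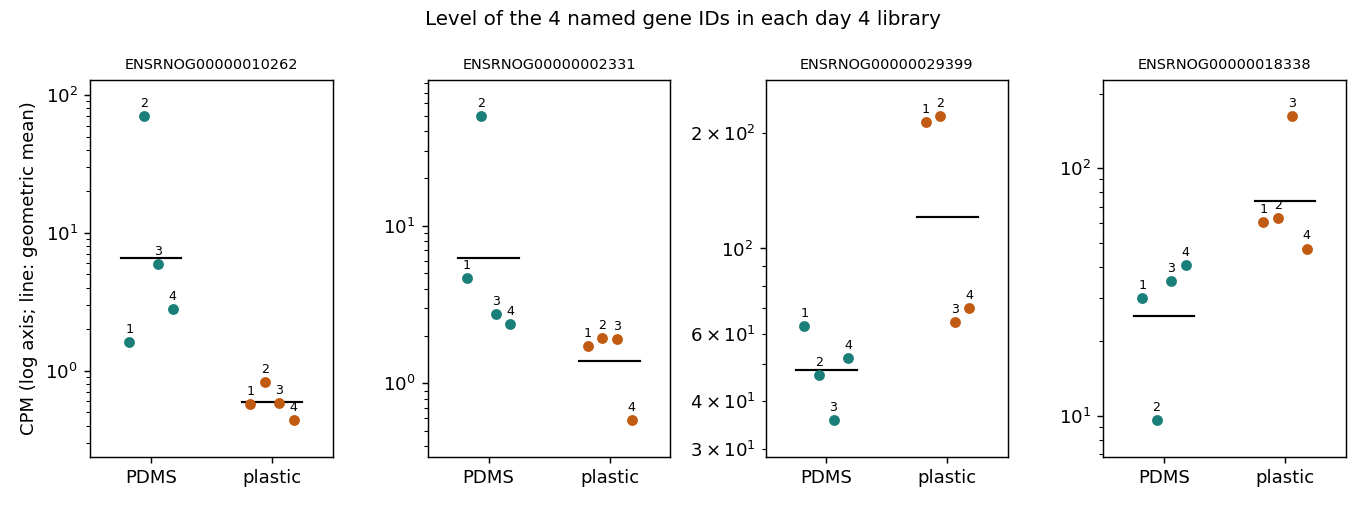
CPM of the 4 gene IDs (log axes, one panel each with its own range) in the PDMS and plastic libraries of day 4. Points are libraries with their replicate numbers and lines are geometric means: PDMS replicate 2 carries the upper values of the first pair of IDs (70.2 and 49.6 CPM), and Plastic replicates 1 and 2 those of ENSRNOG00000029399 (214 and 221 CPM).

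A further view of level comes from the authors' deposited table of scaled values, which adds up to nearly the same total in each library. Its ratio to the raw count differs between genes and is nearly constant over libraries (median coefficient of variation 1.23% over 8490 genes). The authors name this table RPM, but values per read total alone would give every gene the same ratio. No source used here says what the gene-level factor stands for, and levels on this scale may not be fully comparable between genes. On it, ENSRNOG00000010262 stood at 10.9 ± 18.3 on PDMS against 0.31 ± 0.06 on plastic (mean ± SD of 4 libraries). ENSRNOG00000002331 stood at 12.02 ± 18.98 and 1.22 ± 0.52. ENSRNOG00000029399 stood at 26.8 ± 6.23 on PDMS and 79.3 ± 50.4 on plastic. ENSRNOG00000018338 stood at 13.1 ± 6.10 and 37.7 ± 22.5. By its mean over the 8 libraries, ENSRNOG00000029399 ranked at the 80.9th percentile of genes tested and ENSRNOG00000010262 at the 32.7th, on this scale.

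Genes with a large gene-level factor leaned further toward lower levels on PDMS. Among genes with such a factor, split into tertiles, 315 were lower and 49 higher on PDMS at an unadjusted p under 0.05 in the highest tertile. In the middle tertile the counts were 224 and 80, and in the lowest 180 and 106. The median log2 fold change over all genes of each tertile was -0.04, 0.01 and 0.04, in the same order. By library, the median deviation of the highest tertile minus that of the lowest was -0.05, -0.07, -0.08 and 0.03 log2 units in PDMS replicates 1 to 4 and -0.02, 0.05, 0.08 and 0.06 in Plastic replicates 1 to 4. The groups overlapped on this measure, and its part in the counts was not tested.

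The day 4 differences were followed to days 7 and 14, where other libraries of the same surfaces exist. There were 4 PDMS and 3 plastic at day 7, and 4 and 4 at day 14. No library is shared between the day 4 comparison and the later ones. The later libraries did enter the fit that chose the day 4 genes, through its shared estimate of the spread. Of the 910 genes lower on PDMS at day 4 at an unadjusted p under 0.05, 859 (94.4%) had a lower mean log2 CPM on PDMS at day 7, against 47.3% of all genes tested. At day 14 it was 662 (72.7%), against 49% of all genes. The median difference of these genes was -0.86 log2 units at day 4, where they were chosen, -0.81 at day 7 and -0.21 at day 14. Of the 336 genes higher on PDMS at day 4, 52 (15.5%) were lower on PDMS at day 7 and 186 (55.4%) at day 14, and their median differences were 0.71, 0.36 and -0.04. At day 14 the share of these 336 genes lower on PDMS was 44% without PDMS day 14 replicate 2. Of the 270 fully separated genes lower on PDMS at day 4, 235 (87%) were lower at day 7 and 146 (54.1%) at day 14. Of the 322 fully separated genes higher at day 4, 40 (12.4%) were lower on PDMS at day 7 and 204 (63.4%) at day 14.

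Over all genes, which are not independent replicates, the differences of day 4 and day 7 were related with r = 0.56 (Pearson) and rho = 0.50 (Spearman), and those of day 4 and day 14 with 0.20 and 0.12. These libraries may still share a source. Plastic replicates 3 of days 4 and 7 departed from their group means in the same genes (correlation 0.76 over genes), and Plastic day 4 replicates 1 and 2 departed with Plastic day 7 replicate 4 (0.52 and 0.54). The other same-numbered plastic libraries gave 0.26 (number 1) and -0.28 (number 4), and same-numbered PDMS libraries gave -0.02 to 0.33. Deviations within a group cancel out, so these correlations are not independent. With each day 7 library left out in turn, 91.3% to 95.2% of the 910 genes were lower on PDMS at day 7. When genes lower on PDMS were chosen without Plastic day 4 replicates 1 and 2, 204 of 238 (85.7%) were lower at day 7. At day 14 it was 144 (60.5%). Of the 188 genes higher on PDMS by that choice, 36 (19.1%) were lower at day 7 and 111 (59%) at day 14. By that choice, the direction at day 4 thus did not tell the genes apart at day 14. When genes lower on PDMS were chosen without Plastic day 4 replicate 3, 1192 of 1311 (90.9%) were lower at day 7 and 937 (71.5%) at day 14. Of the 944 higher ones, 201 (21.3%) were lower at day 7 and 371 (39.3%) at day 14.

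**Figure D5:**
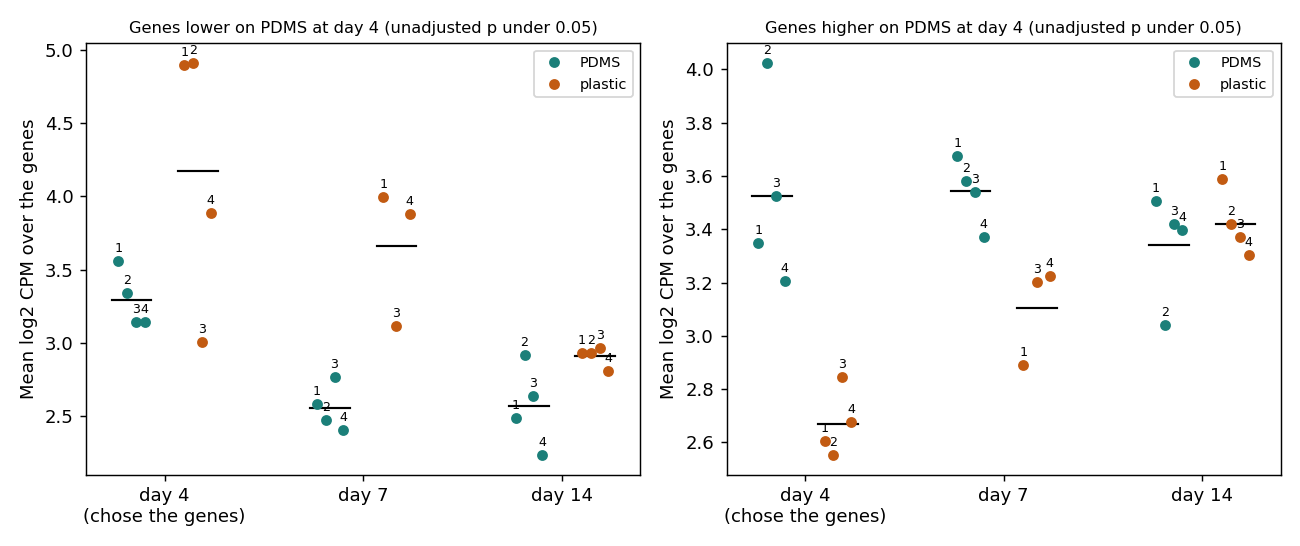
Mean log2 CPM in each library of the 910 genes lower (left) and the 336 genes higher (right) on PDMS at day 4 at an unadjusted p under 0.05; lines are group means and numbers are replicates. At day 4, which chose the genes, Plastic replicate 3 (3.00) lies below the 4 PDMS libraries in the left panel, and at day 7 each of the 3 plastic libraries lies above each PDMS library.

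Averaged over the 910 genes, log2 CPM in the day 4 libraries was 3.56, 3.34, 3.14 and 3.14 in PDMS replicates 1 to 4 and 4.90, 4.91, 3.00 and 3.89 in Plastic replicates 1 to 4. Plastic replicate 3 lay below all 4 PDMS libraries on the genes that the comparison itself chose. At day 7 the means were 2.41 to 2.77 on PDMS and 4.00, 3.12 and 3.88 in Plastic replicates 1, 3 and 4. The surfaces did not overlap there, and Plastic replicate 3 was again the lowest of its group. At day 14 the means were 2.23 to 2.92 on PDMS and 2.81 to 2.96 on plastic, and the groups overlapped.

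A change of the surface effect between days was tested gene by gene. The difference of the PDMS against plastic effect, day 7 minus day 4, passed for 0 genes (0%) in edgeR (lowest adjusted p = 0.733) and likewise for 0 in DESeq2 and in limma-voom. Unadjusted, 419 genes (2.94%) had an edgeR p under 0.05. Day 14 minus day 4 passed for 0 genes in edgeR (lowest adjusted p = 0.633) and limma-voom and for 4 in DESeq2, with 971 genes (6.81%) at an unadjusted p under 0.05. No gene was thus shown by edgeR to respond to the surface differently at day 4 than at day 7 or day 14.

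The 4 gene IDs varied in how they stood at the later days. For ENSRNOG00000029399 the log2 fold change of PDMS against plastic was -2.46 ± 0.65 at day 7 (SE; edgeR adjusted p = 0.0641) and -0.60 ± 0.60 at day 14 (adjusted p = 0.833). At day 7 its 4 PDMS libraries stood at 9.04 to 17.3 CPM and its 3 plastic libraries at 53.0 to 97.1 CPM, with no overlap. For ENSRNOG00000018338 it was -1.62 ± 0.66 at day 7 (edgeR adjusted p = 0.195) and -0.60 ± 0.61 at day 14 (adjusted p = 0.837). For ENSRNOG00000002331 it was 2.93 ± 1.16 at day 7 (edgeR adjusted p = 0.179), where PDMS libraries stood at 7.88 to 18.1 CPM and plastic libraries at 0.38 to 3.39 CPM, and -0.60 ± 0.95 at day 14 (adjusted p = 0.901). For ENSRNOG00000010262 it was 0.95 ± 1.39 at day 7 (edgeR adjusted p = 0.772) and -0.32 ± 1.36 at day 14 (adjusted p = 0.969). At day 2 on PDMS, with no plastic library analysed here, this ID ranged from 3.21 to 85.1 CPM over 4 libraries.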

How the data were processed

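Raw counts by Ensembl rat ID and a table of scaled values, named RPM by the authors, were deposited. Sources used here give no counting program, strand setting, build or annotation, and overlapping or near-identical genes may therefore share reads. Per the series' design text, read quality and duplicates were checked with FastQC 0.11.2, bamUtil 1.0.11 and dupRadar 1.4, and expression was quantified with Cufflinks (2.2.1 per the submitters' processing notes, which also name STAR and DESeq2). The variance-stabilized table was not used. Of 28 columns, 1 belongs to no listed sample and was left out.

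Counts were analysed with edgeR 4.0.16 in R 4.3.3. filterByExpr by group (minimum count 10, total 15) kept 14258 of 32753 IDs, with at least 99.9% of each library's reads; 0 rows named no gene. TMM scaling and 1 quasi-likelihood model of 7 group means over all 27 libraries (totals of 17.3 to 25.3, in units of 1e+06 counts) left 20 residual degrees of freedom; the biological coefficient of variation was 0.243 (median). SE was taken from the log2 fold change and the F statistic. log2 CPM carries a prior count of 2. DESeq2 1.42.0 and limma 3.58.1 were alternatives. The libraries compared, the gene lists and the tests were chosen with earlier results of these data known. The rule for named genes asked for symbols; with 0 of 32753 IDs matched to the RefSeq table of GRCr8, its fallback gave 2 IDs per direction, and no promoter sequence could be matched.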

Additional observations from a re-analysis of the deposited data

Results flagged for a closer look

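Each measure was searched for a library standing apart from the 3 others of its group (Dixon's test). Of 18 groups tested, 2 gave a mark, where chance would give about 0.9 for independent values. That figure is only a rough guide. The measures include the named IDs, which were chosen on these same libraries, and mean RMS differences that share pairs of libraries. Plastic day 4 replicate 3 had a mean RMS log2 difference of 1.24 to the other libraries of its group, while the others had 0.87 to 0.88. The means of Plastic replicates 1 and 2 were lowered by their own closeness (0.32). Plastic replicate 4 was about as far from them (0.87 and 0.89) as from Plastic replicate 3 (0.88). The mark therefore depends on counting the close pair as 2 libraries. Plastic day 4 replicate 4 stood at a log2 CPM of -0.56 for ENSRNOG00000002331, below 0.86 to 1.03 in the others.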

How the results depend on the processing

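For PDMS against plastic at day 4, edgeR also called 0 genes with DESeq2 size factors, with library size, without the low-count filter, with a mean of at least 5 CPM and in a fit of the 8 libraries alone, and limma-voom called 0. DESeq2 called 24 and left 1938 genes with no adjusted p, and for day 14 minus day 4 it called 4. Leaving out 1 day 4 library gave 0 to 245 genes, with 245 without Plastic day 4 replicate 3, and 0 to 0 for both differences between days. Of 4 settings added after seeing the data, leaving out Plastic replicate 3 and PDMS replicate 2 gave 39 genes; the other 3 gave 0 (Plastic replicates 1 and 2 left out, those 2 summed with replicate 3 left out, and the day 4 libraries alone without Plastic replicate 3). Whether replicate numbers pair the samples is not settled: same-numbered PDMS and plastic libraries had correlations of deviations of 0.58, 0.46 and 0.50 for numbers 2, 3 and 4 and -0.06 for number 1. PDMS replicates 3 and 4 correlated best with their own number, and PDMS replicate 2 about equally with Plastic replicates 1 (0.59) and 2. The main fit carried no block, since the labels do not say what the replicate numbers mark. A replicate block called 0 genes, with 1120 at an unadjusted p under 0.05 in the 8 libraries and 1230 in all 27, and 0 genes for both differences between days. The 4 IDs kept their sign in 88 of 88 refits and 1 of these was called (ENSRNOG00000010262 with DESeq2). Full separation of the libraries was a condition of their choice, so leaving out or summing libraries could hardly reverse a sign. The count of signs is therefore no independent support. In the lowest tertile of expression 27% of intervals lay inside 2-fold; the part of depth in this was not tested.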
